A study of Mus musculus with 4 samples.

Results

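The enzymes that make citrulline and arginine, and those that turn ornithine into polyamines, were followed in the small intestine of CFLARs Tg and wild-type mice. They are 10 named genes: Nags, Cps1, Otc, Ass1, Asl, Arg1, Arg2, Oat, Aldh18a1 and Odc1. A gene was measured by probe sets of the array that the platform annotation gives to that gene alone, and where there were several, the brightest on average represented it. By this rule 9 of the 10 were measured, out of 19938 genes in all. Both probe sets that carry Ass1 also list a second symbol, Gm5424, so Ass1 is not analysed here. The probe sets of Arg1 and Arg2 were dim, with means of 7.44 and 7.45 over the arrays, and lay just under the filter on low values (7.48), so 7 of the 9 entered the main fit of 13956 genes.

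Total RNA of the small intestine of C57BL/6 mice was hybridised to 4 single-colour Affymetrix arrays, 2 of wild-type mice and 2 of CFLARs Tg mice, which carry a transgene for the short form of Cflar (cFLIP), a regulator of caspase-8. The title of the series places the mice in work on necroptosis of the intestinal epithelium and ileitis, and its design asks how gene expression differs between these genotypes. The wild-type arrays are titled XX and XY and the CFLARs Tg arrays XCFX and XCFY, and each array is called by this notation here. Read as sex types, the titles give an XX-type pair (XX and XCFX) and an XY-type pair (XY and XCFY). The promoter that drives the transgene, its copy number, the age and treatment of the mice, the stretch of intestine and the number of animals behind each array were not found in the labels. The p-values therefore measure only how far these samples spread, a spread that may be technical in part and that includes any effect of sex type.

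All values are log2 expression values as deposited. The array medians lay between 8.31 and 8.33, and at most 33 of 28856 probe sets had equal values on any pair of arrays. Xist read 12.90 to 12.92 on the XX-type arrays and Kdm5d, Uty and Eif2s3y, all Y-linked, read 9.08 to 10.35 on the XY-type arrays. In the opposite sex type these 4 genes read 5.13 to 6.78, taken here as the range of background. Cflar read 9.34 and 9.28 in wild-type and 9.49 and 9.30 in CFLARs Tg (difference 0.08, SE 0.08, limma adjusted p = 0.498). Its other probe sets differed by 0.08 and -0.05. It is not known whether any of the 3 reads the transgene, so this gives no check of the genotypes. Enterocyte markers were bright on every array, with Apoa4 between 13.89 and 14.30 and Alpi between 12.86 and 13.65 (both chosen after their values were seen).

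Enterocytes are a main site of citrulline synthesis in mammals. Glutamine, glutamate and proline feed the mitochondrial enzymes Aldh18a1 and Oat, which yield ornithine, and Otc joins ornithine to the carbamoyl phosphate made by Cps1, whose obligatory activator is the product of Nags. Ass1 and Asl then turn citrulline into arginine, a step that runs in the intestine of suckling animals and later moves largely to the kidney. Arginases (Arg1 in the cytosol, Arg2 in mitochondria) split arginine into urea and ornithine, and Odc1 decarboxylates ornithine to putrescine, the first and most tightly controlled step of polyamine synthesis.

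In CFLARs Tg intestine, the route into citrulline lay lower and the entry into polyamines higher. Of the 7 fitted enzymes, 4 fell (Otc, Nags, Aldh18a1 and Oat), 1 rose (Odc1), and Asl and Cps1 lay lower without passing the test (limma, Benjamini-Hochberg adjusted p under 0.05 over all genes fitted). Otc, Nags, Aldh18a1 and Oat fell to between 56.8% and 69.7% of the wild-type level, and Odc1 rose to 155%. By the same test 10.9% of all fitted genes fell, 8.44% rose and 19.3% did either. The median difference of the fitted enzymes was -0.64 (log2, CFLARs Tg minus wild-type), beside -0.01 over all genes fitted.

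These calls rested on the small gap between the wild-type arrays. Without the XX array, or without the XY array, 0 of the 5 calls remained (limma adjusted p from 0.163 to 0.227), while the differences kept their sign and moved by at most 0.04; 42 and 40 of all genes passed in these fits, or 0.301% and 0.287%. In the full fit 7 of the 7 fitted enzymes had an unadjusted p under 0.05, as had 39.1% of all fitted genes. Tested against a minimum log2 difference of 0.5 (treat in limma), 0 of the 7 passed, as did 0.451% of all genes.

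**Figure D1:**
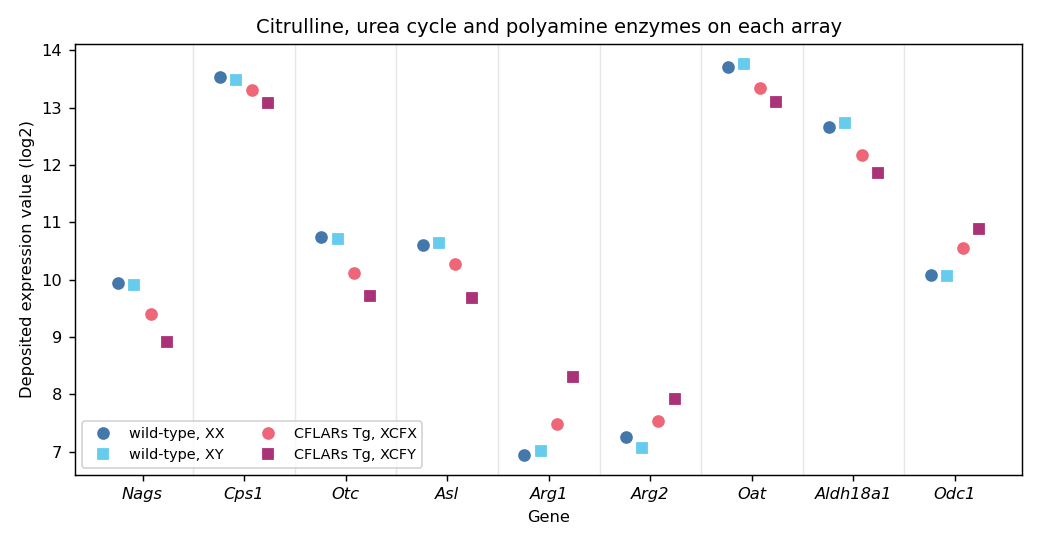
Deposited log2 expression value of the 9 measured enzymes (y axis) on each of the 4 arrays; blue points are wild-type and red or purple points CFLARs Tg, circles the XX-type and squares the XY-type arrays. Nags, Cps1, Otc, Asl, Oat and Aldh18a1 lie lower on both CFLARs Tg arrays, and Arg1, Arg2 and Odc1 lie higher; levels of different genes come from different probe sets and are not to be compared.

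The promoter windows of the enzyme with the largest fall (Otc), of another that fell (Aldh18a1) and of the one that rose (Odc1) are shown because the members moved in opposite directions. RefSeq's promoter table for GRCm38.p6 held 6 of the 10 genes: Nags, Otc, Ass1, Oat, Aldh18a1 and Odc1. Each run gives the 250 bases before the start site, 5′ to 3′ on the strand of the gene. Otc lies at chrX:10252055-10252304 (plus strand), Aldh18a1 at chr19:40588464-40588713 (minus strand) and Odc1 at chr12:17544623-17544872 (plus strand). Capitals mark the Sp1-type GC box GGGCGG and the E-box CACGTG, on either strand.
Otc: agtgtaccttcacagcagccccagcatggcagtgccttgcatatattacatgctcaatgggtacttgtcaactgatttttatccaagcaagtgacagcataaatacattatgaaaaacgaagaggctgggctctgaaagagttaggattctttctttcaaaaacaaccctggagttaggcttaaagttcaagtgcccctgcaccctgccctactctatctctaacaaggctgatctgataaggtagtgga
Aldh18a1: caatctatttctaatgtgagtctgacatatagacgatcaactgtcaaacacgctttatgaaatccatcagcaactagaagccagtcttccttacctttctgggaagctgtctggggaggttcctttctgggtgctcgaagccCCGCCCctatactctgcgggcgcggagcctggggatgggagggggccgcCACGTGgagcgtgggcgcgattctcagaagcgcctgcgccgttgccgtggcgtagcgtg
Odc1: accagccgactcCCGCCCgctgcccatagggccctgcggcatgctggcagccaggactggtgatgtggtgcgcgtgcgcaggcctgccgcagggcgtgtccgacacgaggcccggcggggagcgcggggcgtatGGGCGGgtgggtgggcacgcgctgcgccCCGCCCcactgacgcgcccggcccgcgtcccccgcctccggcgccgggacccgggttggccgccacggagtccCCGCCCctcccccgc

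The windows differ in composition. G and C make up 43.6% of the Otc window, 57.2% of the Aldh18a1 window and 80.0% of the Odc1 window, beside a median of 52.4% over the 32851 windows of the table; 20.1%, 64.7% and 98.8% of those windows are poorer in G and C. The Odc1 window holds 4 GC boxes, the Nags window 2, the Aldh18a1 and Ass1 windows 1 each and the Otc and Oat windows 0. Of all windows, 32.7% hold at least 1. CACGTG is in the Aldh18a1 and Ass1 windows, and in 6.02% of all windows. CCAAT is in the Oat window alone of the 6 (33.8% of all windows), and TATAAA (12.4%) and the HNF4-type site CAAAGTCCA (0.384%) are in none of the 6. The motifs were searched on both strands, no match of one overlapped that of another in the 6 windows, and a match is a description of the window only.

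Otc, which encodes ornithine transcarbamylase and lies on the X chromosome, read 10.75 on the XX array and 10.71 on the XY array, against 10.11 on XCFX and 9.71 on XCFY. Both CFLARs Tg arrays lay below both wild-type arrays, with XCFY the lowest. The difference was -0.82 (SE 0.14, limma adjusted p = 0.0298), from 10.73 ± 0.03 to 9.91 ± 0.28 (mean ± SD, n = 2), or 1.76-fold lower.

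Nags encodes the synthase of N-acetylglutamate, without which Cps1 protein is inactive. It read 9.94 and 9.90 on the wild-type arrays XX and XY, 9.40 on XCFX and 8.91 on XCFY. The groups did not overlap, and the XCFY array again lay lowest. Nags fell by 0.77 on the log2 scale (SE 0.17, limma adjusted p = 0.0441), to 58.7% of wild-type.

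Cps1, the carbamoyl phosphate synthetase of mitochondria, read 13.53 and 13.48 on the XX and XY arrays, 13.31 on XCFX and 13.08 on XCFY. It lay lower on both CFLARs Tg arrays, by 0.32 on average, but did not pass the test (SE 0.09, 95% interval of the difference -0.56 to -0.07, limma adjusted p = 0.0782). With sex type as a block the adjusted p was 0.0535. Without XCFX or without XCFY it passed (differences -0.43 and -0.20, limma adjusted p = 0.00295 and 0.0479), in fits that called 47.0% and 32.4% of all genes.

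Asl, the argininosuccinate lyase that releases arginine, read 10.60 and 10.64 on the wild-type arrays XX and XY, 10.27 on XCFX and 9.69 on XCFY. The CFLARs Tg arrays lay below both wild-type arrays but 0.58 apart from each other, the widest gap among the enzymes that lay lower. The difference of -0.64 (SE 0.20, 95% interval -1.16 to -0.12) did not pass (limma adjusted p = 0.0857). Asl passed with sex type as a block (limma adjusted p = 0.0417; 12.2% of all fitted genes fell in that fit). The Asl difference was -0.93 without XCFX, -0.35 without XCFY, -0.66 without XX and -0.62 without XY.

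The enzymes that supply ornithine from glutamate and proline fell together. Aldh18a1, the synthase of pyrroline-5-carboxylate, read 12.66 and 12.73 on the XX and XY arrays, 12.17 on XCFX and 11.87 on XCFY, a difference of -0.67 (SE 0.12, limma adjusted p = 0.0291). Oat, the ornithine aminotransferase, read 13.71 and 13.77 on the wild-type arrays, 13.34 on XCFX and 13.10 on XCFY, a difference of -0.52 (SE 0.10, limma adjusted p = 0.0318). In both genes XCFY lay lowest and the groups did not overlap. They stood at 62.7% (Aldh18a1) and 69.7% (Oat) of wild-type.

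Odc1, the ornithine decarboxylase, was the fitted member that rose. It read 10.09 and 10.07 on the XX and XY arrays, 10.55 on XCFX and 10.88 on XCFY. Both CFLARs Tg arrays were higher, XCFY the most. The difference was 0.63 (SE 0.12, limma adjusted p = 0.0335), from 10.08 ± 0.01 to 10.72 ± 0.23 (mean ± SD, n = 2), or 1.55-fold higher. Its second probe set read 10.48 on XCFX and 10.80 on XCFY and differed by 0.66 between the genotypes.

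The arginases lay higher in CFLARs Tg, from a level near the background scale. Arg1 read 6.94 on XX and 7.01 on XY, 7.49 on XCFX and 8.31 on XCFY. The wild-type readings were little above the top of the background range (6.78), so the difference of 0.93 may understate the change in RNA. Arg2 read 7.26 on XX and 7.07 on XY, 7.54 on XCFX and 7.92 on XCFY, a difference of 0.56. Neither passed when the filter was dropped (SE 0.27 and limma adjusted p = 0.0885 for Arg1, SE 0.15 and adjusted p = 0.0721 for Arg2; 5.31% of 19938 genes rose in that fit). The 95% intervals of the differences were 0.24 to 1.62 for Arg1 and 0.18 to 0.94 for Arg2. Without the filter and with sex type as a block, the adjusted p was 0.0284 for Arg1 and 0.0589 for Arg2 (6.67% of genes rose). In the unfiltered fit the Arg1 difference was 1.34 without XCFX, 0.52 without XCFY, 0.90 without XX and 0.97 without XY.

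The CFLARs Tg arrays were graded. In 9 of the 9 measured enzymes, the 7 fitted ones included, both lay on the same side of the wild-type mean with XCFY farther from it than XCFX. This order was found in 54.0% of all fitted genes. The difference in the XX-type pair ran from -0.22 (Cps1) to -0.64 (Otc) among the 6 enzymes that lay lower, and in the XY-type pair from -0.41 (Cps1) to -1.0 (Otc). Odc1 differed by 0.46 and 0.81 in these pairs, and Arg1 by 0.55 and 1.31. The wild-type arrays were 0.02 to 0.19 apart in these enzymes and the CFLARs Tg arrays 0.23 to 0.82, beside medians of 0.05 and 0.11 over all fitted genes. With 1 array for each sex type and genotype, the sex type and the single array cannot be told apart. The same holds for any difference in transgene copy number between XCFX and XCFY, which the labels do not give. The difference between the pairs has no test. The genotypes did not overlap in any of the 9 enzymes, with CFLARs Tg below wild-type in 6 and above it in 3. Among the 7 fitted enzymes these counts were 6 and 1. Of all fitted genes, 69.6% did not overlap (37.6% below and 32.0% above).

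**Figure D2:**
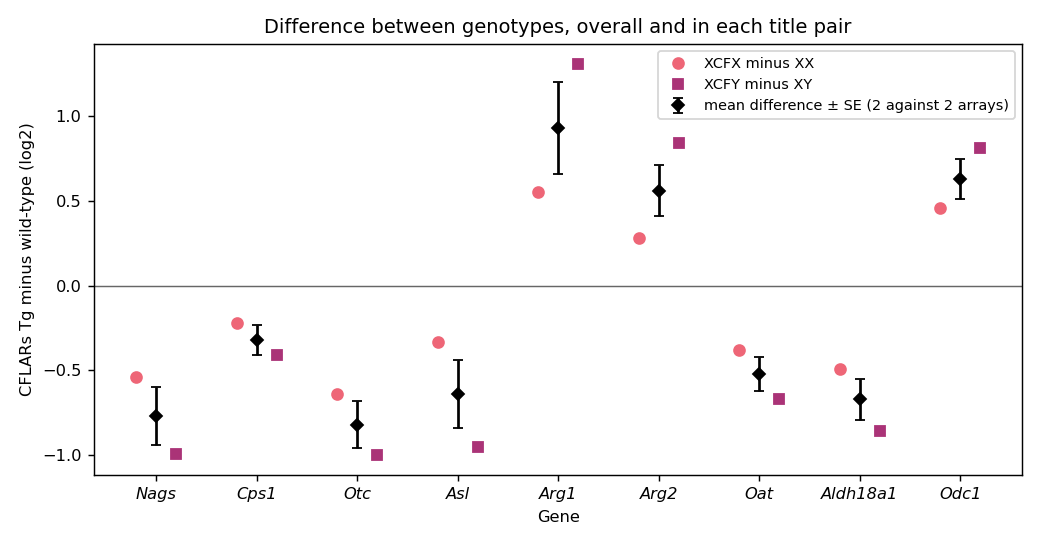
Difference between CFLARs Tg and wild-type on the log2 scale (y axis) for each enzyme; black diamonds with bars give the mean difference ± SE from limma (2 against 2 arrays, for Arg1 and Arg2 from the fit without a filter), circles the XX-type pair and squares the XY-type pair. The XY-type pair shows the larger difference in every enzyme drawn, the smallest for Cps1 (-0.41) and the largest for Arg1 (1.31).

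The steps after Odc1 went both ways. Of 20 genes of polyamine synthesis, regulation and breakdown, 14 had a probe set of their own and 13 were fitted, of which 3 rose, 2 fell and 8 did not pass (median 0.00; 8.44% of all fitted genes rose and 10.9% fell). Smox, the spermine oxidase gene, read 9.03 and 9.17 in wild-type and 10.13 and 10.14 in CFLARs Tg (difference 1.03, SE 0.07, limma adjusted p = 0.00899). Srm, the spermidine synthase gene that acts directly downstream of Odc1, read 10.30 and 10.47 in wild-type and 11.23 and 11.54 in CFLARs Tg (difference 1.01, SE 0.13, adjusted p = 0.0199). Azin1, which encodes an inhibitor of antizyme and so protects Odc1 protein, read 9.70 and 9.78 against 10.40 and 10.38 (difference 0.65, SE 0.06, adjusted p = 0.0161). In Smox and Azin1 the CFLARs Tg arrays were only 0.01 and 0.02 apart.

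The polyamine genes that fell were Agmat, named for agmatinase, by 0.76 (SE 0.07, limma adjusted p = 0.0163), and Sat2, a relative of the spermidine acetyltransferase gene Sat1, by 0.53 (SE 0.07, adjusted p = 0.0208). Sat1 itself, the rate-limiting gene of polyamine breakdown, read 11.56 and 11.56 in wild-type and 11.53 and 11.51 in CFLARs Tg, with an interval of the difference of -0.18 to 0.11. Eif5a, which encodes the protein modified with a spermidine-derived residue, differed by 0.51 (adjusted p = 0.0986, or 0.0287 with sex type as a block) and the modifying enzymes Dhps and Dohh by 0.00 and 0.11. The salvage gene Mtap differed by 0.54 (adjusted p = 0.0531, or 0.0281 with the block). Sat1, Eif5a, Dhps, Dohh and Mtap were chosen after their values were seen. Amd1, Amd2, Sms, Oaz1, Paox and Mat2a are not analysed here.

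The supply of glutamate and proline was mixed as well. Of 15 genes listed, 11 were measured and fitted. Of these, 3 rose, 2 fell and 6 did not pass (median -0.15). Over all fitted genes 8.44% rose and 10.9% fell. Gpt, an alanine aminotransferase gene, fell by 0.69 (SE 0.11, limma adjusted p = 0.0266) and Prodh2, which oxidises hydroxyproline, fell by 0.57 (SE 0.06, adjusted p = 0.0168). Prodh, the proline dehydrogenase gene, read 10.37 and 10.24 in wild-type, 10.06 on XCFX and 9.38 on XCFY (difference -0.59, SE 0.24, adjusted p = 0.141, or 0.0427 with sex type as a block). The 3 that rose were the glutamine transporter gene Slc1a5 (0.56, adjusted p = 0.0327), the glutamine synthetase gene Glul (0.54, adjusted p = 0.0242) and the cytosolic aspartate aminotransferase gene Got1 (0.28, adjusted p = 0.0349, or 0.0513 with sex type as a block). Glud1, the glutamate dehydrogenase gene, differed by -0.01 (95% interval -0.18 to 0.16; chosen after its value was seen).

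Slc25a15, which encodes the carrier that brings cytosolic ornithine into mitochondria in exchange for citrulline, fell as well. It read 11.38 and 11.39 on the wild-type arrays, 10.78 on XCFX and 10.31 on XCFY (difference -0.84, SE 0.16, limma adjusted p = 0.0353), or 55.9% of wild-type. It was the 1 of 5 fitted genes of the carrier list that passed (median -0.00), beside 19.3% of all fitted genes. Slc25a13, an aspartate and glutamate carrier gene, differed by -0.34 (SE 0.09, adjusted p = 0.0634) and its relative Slc25a12 by 0.15 (adjusted p = 0.237). Slc25a29 differed by 0.06 (SE 0.07). Slc25a2 and Slc25a18 lay under the filter.

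Genes that take up or use arginine showed the widest range. All 15 were fitted. Of these, 4 rose, 2 fell and 9 did not pass (median -0.18), while 8.44% of all fitted genes rose and 10.9% fell. Nos2, the inducible nitric oxide synthase gene, which competes with arginase for arginine, read 7.40 and 7.33 in wild-type and 10.87 and 10.93 in CFLARs Tg (difference 3.53, SE 0.06, limma adjusted p = 0.000609). Slc7a1, the main cationic amino acid transporter of most cells, rose by 0.79 (SE 0.08, adjusted p = 0.0168), its relative Slc7a6 by 0.54 (adjusted p = 0.0199) and the arginine methyltransferase gene Prmt1 by 0.54 (SE 0.13, adjusted p = 0.0481, or 0.0548 without a filter).

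The arginine-using genes that fell were both of creatine synthesis. Gatm, which transfers the amidino group of arginine to glycine, read 13.32 and 13.06 in wild-type, 12.16 on XCFX and 11.61 on XCFY (difference -1.30, SE 0.21, limma adjusted p = 0.0256). Gamt, the next enzyme, read 10.15 and 10.30 in wild-type, 9.65 on XCFX and 9.43 on XCFY (difference -0.68, SE 0.10, adjusted p = 0.0246). Gatm thus stood at 40.5% and Gamt at 62.4% of wild-type. Chosen after its value was seen, Ddah1, which breaks down methylarginines, differed by 0.66 (adjusted p = 0.0539, or 0.0361 with sex type as a block).

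Over the 4 pathway lists together 17 of 44 fitted genes passed, 10 up and 7 down, beside 19.3% of all fitted genes (8.44% up and 10.9% down). Without the XX array or without the XY array, 1 of the 17 still passed, Nos2.

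**Figure D3:**
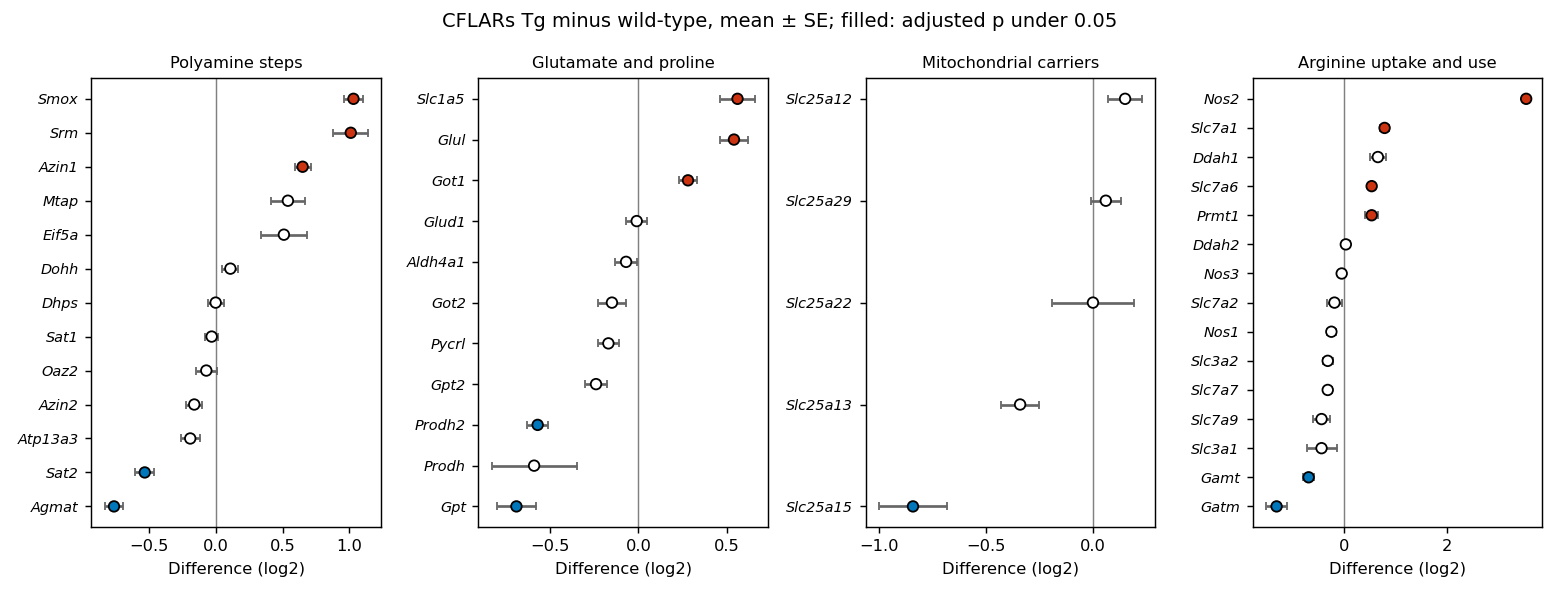
Difference between CFLARs Tg and wild-type on the log2 scale (x axes, which differ in range) for the fitted genes of the 4 pathway lists, mean ± SE from limma with 2 against 2 arrays; red and blue points passed at an adjusted p under 0.05, white points did not. Smox and Srm (1.03 and 1.01) lead the polyamine list, Slc25a15 (-0.84) is the lowest carrier, and Nos2 (3.53) and Gatm (-1.30) are the ends of the arginine list.

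Markers of several cell types moved between the same arrays. Of all 13956 fitted genes, 7306 lay lower and 6650 higher. By limma 10.9% of them fell, 8.44% rose and 39.1% had an unadjusted p under 0.05. In bulk RNA, fewer cells of a type and less RNA per cell cannot be told apart. Enterocyte markers lay lower in 11 of 11 fitted genes, with a median of -0.48. By limma 0 of these passed, and 8 had an unadjusted p under 0.05. Lct differed by -1.49, Fabp1 by -0.81 and Fabp2 by -0.72. With sex type as a block Alpi, Dgat1 and Lct passed (limma adjusted p = 0.0354, 0.0392 and 0.0410). In that fit 12.2% of all fitted genes fell. Sis, under the filter, differed by -0.52 and passed in the fit without a filter (limma adjusted p = 0.0204). Alpi, Dgat1 and Sis were chosen after their values were seen. The summed level of the 12 measured markers, added on the linear scale, was 99.7% and 100% of the wild-type mean on XX and XY, 85.0% on XCFX and 61.9% on XCFY. Vil1, a structural gene of the brush border chosen after its value was seen, read 12.18 and 12.17 in wild-type, 12.21 on XCFX and 11.99 on XCFY. The part of the enterocyte markers in the fall of the citrulline enzymes was not tested.

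Liver cells also make Cps1, Otc, Asl and Arg1, so liver markers were read on each array. The summed level of 15 hepatocyte markers was 85.6% and 114% of the wild-type mean on XX and XY, 56.1% on XCFX and 30.5% on XCFY. A linear sum gives most weight to the brightest genes. Afp read 12.34 on XX and 10.76 on XCFX, and Ttr 12.35 and 11.74, larger falls than that of Alb. The wild-type arrays were 0.08 apart in Afp, 0.01 apart in Ttr and 1.25 apart in Alb. Alb read 11.47 on XX, 12.72 on XY, 11.20 on XCFX and 6.57 on XCFY, the last within the range of background, as were Ahsg (6.57) and Apoh (6.70) on that array. Tdo2 and Cyp2e1 lay within the background range on all 4 arrays. Otc, Nags and Cps1 were each 0.04 apart on the wild-type arrays. Between XX and XCFX, Alb differed by -0.27, Ahsg by -0.38, Ttr by -0.61, F2 by -0.72 and Afp by -1.57. The 6 enzymes that lay lower differed by -0.64 (Otc), -0.54 (Nags), -0.49 (Aldh18a1), -0.38 (Oat), -0.33 (Asl) and -0.22 (Cps1). Arg1 differed by 0.55 in this pair. Of 11 fitted liver markers 3 fell (median -0.88), beside 10.9% of all fitted genes. Afp fell by 1.76, Ttr by 0.84 and F2 by 0.80 (limma adjusted p = 0.0154, 0.0360 and 0.0335). Ttr and F2 were chosen after their values were seen. Tat, chosen likewise, went the other way, with a difference of 1.36 (adjusted p = 0.0514, or 0.0183 with sex type as a block). The part of liver RNA in the levels of these enzymes was not tested.

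Pancreatic acinar markers stood apart on the XY array. Their summed level over 9 genes was 164% of the wild-type mean on XY and 36.4%, 33.4% and 21.9% on XX, XCFX and XCFY. Ctrb1 read 12.44 on XY and 10.16, 9.67 and 7.70 on XX, XCFX and XCFY, and Pnliprp1 read 10.39 on XY and 6.72, 6.84 and 6.18 on the others. Cpb1 read 9.72 on XY and 6.97, 7.25 and 6.67 on the others. None of the 7 fitted acinar genes passed (limma, 0 genes; unadjusted p under 0.05 in 1). With XY left out, the differences were -0.84 for Otc, -0.79 for Nags, -0.64 for Aldh18a1, -0.50 for Oat and 0.62 for Odc1. The part of acinar RNA in the levels of these enzymes was not tested.

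Myeloid markers lay higher on the CFLARs Tg arrays, on which Arg1 was higher. The summed level of 10 neutrophil markers was 97.6% and 102% of the wild-type mean on XX and XY, 209% on XCFX and 480% on XCFY. Of 8 fitted members 6 rose, beside 8.44% of all fitted genes. Among the 6 were S100a9 by 2.71, S100a8 by 2.67 and Cxcr2 by 2.43 (limma adjusted p = 0.0240, 0.0464 and 0.0286). The summed level of 11 macrophage markers was 98.7% and 101% on the wild-type arrays, 116% on XCFX and 164% on XCFY. Itgam differed by 1.22, Cd14 by 1.11 and Lyz2 by 0.99, and 0 of 9 fitted members passed (limma; unadjusted p under 0.05 in 5), with a median of 0.34. Csf1r and Adgre1, chosen after their values were seen, differed by 0.04 and 0.15, and both read slightly below wild-type on XCFX. Retnla and Chil3, which mark alternatively activated macrophages together with Arg1, lay within the background range on all 4 arrays. Within it, Retnla read 5.67 and 5.59 in wild-type, 5.88 on XCFX and 6.13 on XCFY. Chil3 read 6.06 and 6.01 in wild-type, 6.06 on XCFX and 6.24 on XCFY. The part of myeloid cells in the level of Arg1 was not tested.

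Proliferation markers lay higher with Odc1, a gene that is high in dividing cells. All 11 fitted members lay higher and 4 rose (median 0.32), while 8.44% of all fitted genes rose. Among the 4 were Rrm2 by 0.69, Mcm3 by 0.57 and Top2a by 0.48 (limma adjusted p = 0.0496, 0.0250 and 0.0317). The summed level was 99.2% and 101% of the wild-type mean on XX and XY, 116% on XCFX and 139% on XCFY. Smooth muscle markers moved less, to 104% on XCFX and 115% on XCFY, and 0 of 7 passed (limma; unadjusted p under 0.05 in 3); Des differed by 0.36, Tagln by 0.25 and Mylk by -0.19. The part of cell division in the rise of Odc1 was not tested.

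**Figure D4:**
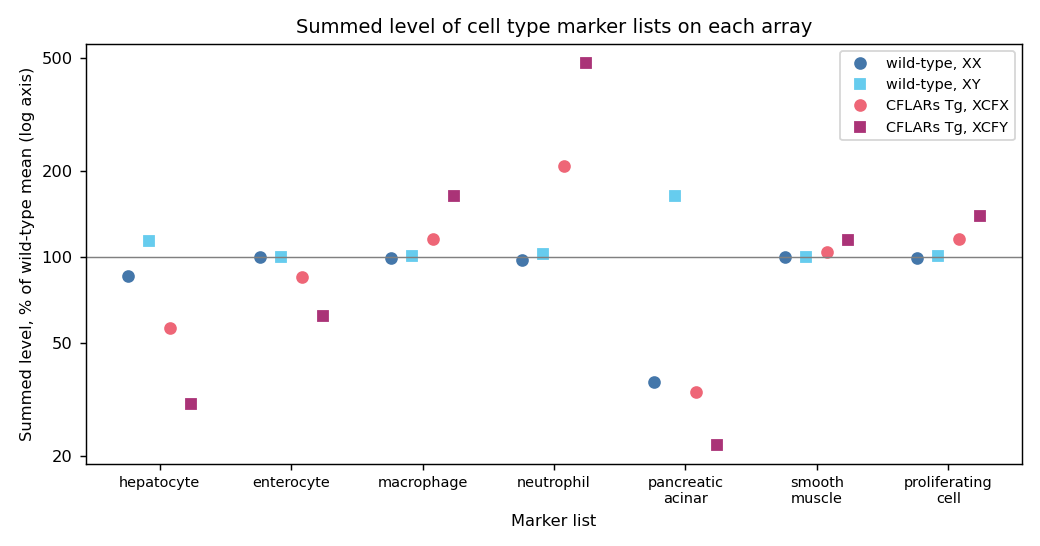
Summed level of 7 cell type marker lists (x axis) on each array, as a percentage of the mean of the wild-type arrays (y axis, log scale); colours and shapes mark the arrays. Neutrophil markers reach 480% on XCFY, hepatocyte and enterocyte markers stand at 30.5% and 61.9% there, and acinar markers stand at 164% on the wild-type XY array.

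The fitted genes most like a member were sought by the Euclidean distance between their log2 values on the 4 arrays, after subtracting each gene's wild-type mean. For Otc, the member with the largest fall, these were Acy3, Mcoln1 and Mertk, each at a distance of 0.04, and 154 fitted genes lay within 0.2. For Arg1, with the largest rise, they were Pilra (0.06), Lrg1 (0.09) and the macrophage marker Lyz2 (0.09), with 16 genes within 0.2. For Odc1, with the largest rise among the fitted members, they were Yars2 (0.03), B3gnt5 (0.03) and Ccn4 (0.04), with 213 genes within 0.2. With 4 arrays such likeness is a description only.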

How the data were processed

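Per the labels' protocols, total RNA was extracted with Trizol and biotin-labelled cRNA was made for Affymetrix arrays. The authors deposited log2 expression values for 28856 probe sets. How these were summarised, corrected and normalized is not given in the sources used here, and the log2 scale was read from the values (4.33 to 14.55). The values were used as deposited, with 0 missing.

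Symbols came from the platform annotation: 21789 probe sets had 1 symbol, 1621 several and 5446 none. A gene table of GRCm38.p6 held 21698 of the identifiers and changed 0 symbols. The 30% of genes with the lowest mean were left out. CFLARs Tg and wild-type (2 arrays each) were compared with limma 3.58.1 in R 4.3.3 (lmFit and eBayes without covariates). Benjamini-Hochberg adjustment ran over 13956 genes at 0.05, with 2 residual degrees of freedom (prior 2.64). The code was tried on simulated arrays with the same SD for every gene, so that trial does not bear on the calls made here. SE and 95% intervals are moderated and intervals are unadjusted. The number of arrays limits the precision.

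The members and lists were chosen with earlier results of these data known. Named were all members, up to 4 genes of each pathway list and 3 of each marker list with the largest difference, other pathway genes that passed, genes nearest to the members with the largest rise and fall, and label check genes; the genes nearest to Odc1 were added after the values were seen. Other settings were no filter, a filter of 50%, quantile normalization, median centring, the mean of probe sets, sex type as a block, an intensity trend, a minimum difference of 0.5 and each array left out.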

Additional observations from a re-analysis of the deposited data

Results flagged for a closer look

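Of 85 named genes, not counting Sis and Dgat1, 12 moved in opposite directions in the title pairs (XCFX minus XX, then XCFY minus XY). This difference was not tested. Cpb1 differed by 0.28 and -3.05, and Pnliprp1 by 0.11 and -4.22; both are pancreatic acinar markers whose high reading was on the wild-type XY array. Slc25a29, a mitochondrial carrier gene, differed by 0.16 and -0.05, with the wild-type arrays at 7.49 and 7.59. Slc25a22, another carrier gene, differed by 0.27 and -0.28, Glud1 by -0.08 and 0.05, and Dhps by 0.01 and -0.01. The enterocyte gene Vil1 differed by 0.03 and -0.18, the macrophage markers Csf1r by -0.10 and 0.19 and Adgre1 by -0.02 and 0.32, and the liver marker Cyp2e1 by 0.13 and -0.40, within the range of background. The Y-linked genes Kdm5d and Uty differed by 0.09 and -0.32 and by 0.05 and -0.24. None of the 9 measured enzymes was among these 12 genes.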

How the results depend on the processing

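With no filter, with a filter of 50%, after quantile normalization or median centring, with the mean of probe sets, with an intensity trend and with sex type as a block, the calls of Otc, Nags, Aldh18a1, Oat and Odc1 were kept, and the block added Asl. When differences were tested against 0.5 on the log2 scale, 63 genes passed, with 0 enzymes lower, 0 higher, and 0 polyamine, 0 glutamate and proline, 0 carrier and 1 arginine gene (Nos2). With the filter of 50%, 3 glutamate and proline genes passed, since Gpt and Prodh2 were left out by it. Leaving out each array in turn gave 40 to 6559 genes, 0 to 6 enzymes lower and 0 to 1 higher, 0 to 9 polyamine genes, 0 to 8 glutamate and proline genes, 0 to 4 carriers and 1 to 12 arginine genes; the low ends came without XX or XY (42 and 40 genes) and the high ends without XCFX or XCFY (6559 and 4526 genes). Slc25a22 (-0.00) ran from -0.28 without XCFX to 0.27 without XCFY. The fits without a filter for Arg1 and Arg2 with the block or with an array left out were chosen after seeing the data. The replicate numbers are only names in accession order, so the paired fit used the title notation, with sex type as a block (3112 genes); among the pathway genes it lost Got1 and gained Eif5a, Mtap, Prodh and Ddah1.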
